A study of Homo sapiens with 3 samples.

Results

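Proteasome genes were examined after cisplatin in KYSE140, a cell line from a human squamous carcinoma of the oesophagus. Members were the genes on the array, matched through probe sets of a single symbol, whose symbol starts with PSMA, PSMB, PSMC, PSMD, PSME or PSMF and a digit, PSMB8 and PSMB9 set apart. The rule found 43 of the 19775 genes measured, and it used no expression value. Of the 43, 36 encode proteasome subunits, chaperones of cap assembly, activators or the inhibitor, and 7 only share the prefix. PSMA6, PSMB11, PSMC5, PSMD7, PSMD13 and PSME2 had no probe set with a single symbol and were not analysed here.

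The cisplatin arrays, labelled B1 and B2, came from cells given cisplatin for 12 h at a labelled 10 mM, and 1 array came from untreated cells. All were grown in RPMI 1640 with serum, and the labels name no other agent or allele. Cisplatin, a platinum compound that crosslinks DNA, is commonly used on cells in the micromolar range, which puts the millimolar label in question. Whether B1 and B2 were separate cultures is not stated, so p-values measure only the spread between these arrays, which may be technical.

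The proteasome is the large protease that degrades ubiquitin-tagged proteins in the cytosol and nucleus. Its 20S core is a barrel of alpha and beta rings, with the protease sites inside the beta rings. A 19S cap recognises, unfolds and feeds substrates, and PA28 and PA200 are alternative caps. When the proteasome is inhibited, mammalian cells raise its genes together through the transcription factor NFE2L1, which binds antioxidant response elements in their promoters.

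The 3 arrays had median intensities of 35.9 in B1, 35.6 in B2 and 34.8 in the untreated array. Array B2 stood apart. Log2 differences over all genes had an SD of 0.60 for B2 minus untreated and 0.56 for B2 minus B1, but 0.33 for B1 minus untreated. All 8 measured squamous markers were above a log2 value of 8 on every array, whereas no leukocyte, endothelial or fibroblast marker was, and all 5 leukocyte, all 4 endothelial and 4 of 6 fibroblast markers were under 6 on every array. The summed intensity of the squamous markers was 21897 in B1, 36782 in B2 and 24350 in the untreated array. Their median intensity was 1273, 3312 and 1215. Single markers went different ways. As log2 difference from untreated, SOX2 was at -1.23 in B1 and -0.09 in B2, and KRT14 at -0.01 and 3.10. The part of the B2 marker difference in the results on B2 was not tested. Differences are therefore given for each cisplatin array, B1 first, as log2 of cisplatin over untreated. Both share the single untreated array.

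Transcripts of the proteasome lay close to the untreated level as a group. Over the 36 genes the median log2 difference was 0.01 in B1 and 0.0036 in B2, against 0.03 and 0.05 over all genes. In both arrays 11 of the 36 (30.6%) were higher and 9 (25%) lower, and 16 went opposite ways, counted by sign with no tolerance. The same held for 39.2% (higher) and 27.4% (lower) of all genes, so neither direction was more common than in the background. Of the 43 members 16 were higher and 10 lower, and their medians were 0.03 for B1 and 0.01 for B2.

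No member reached a log2 difference of 0.32 in the same direction in both arrays. Of all genes 5.91% reached that size upwards and 6.5% downwards. A 1.5-fold difference in both arrays was met by 0 members, against 0.956% of all genes upwards and 2.65% downwards, and a 2-fold difference by 0 members, against 0.142% and 0.678%. In B1 all 36 proteasome genes lay within 0.32 of untreated (100%, against 77.1% of all genes), with a range from -0.21 for PSME4 to 0.22 for PSMB6. In B2 30 of the 36 did (83.3%, against 59.8%), with a range from -0.59 for PSMD14 to 0.49 for PSME4. In both arrays 30 of the 36 did, against 51.3% of all genes. The 6 outside in B2 were PSMD14, PSMF1, PSMA1 and PSMC3 below and PSMD10 and PSME4 above.

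Proteasome transcripts were bright. Bright genes had SDs of 0.21 in B1 and 0.53 in B2, against 0.33 and 0.60 over all genes, but their median absolute difference was smaller in B1 only (0.09 against 0.16, and 0.25 against 0.25 in B2). Of the 36 genes 29 had a mean log2 value of at least 10, and 25 of those 29 (86.2%) lay within 0.32 in both arrays, against 57.2% of the 1650 genes that bright. The SD over the 36 genes was 0.10 in B1 and 0.25 in B2, both below those of the 1650 bright genes. The brightness limit was chosen after seeing the data, and these shares have no test. The 7 measured subunits of CCT, a chaperonin of many subunits that folds actin and tubulin, had SDs of 0.06 and 0.29. Both were also below those of the 1650 bright genes, so a narrow spread was not particular to the proteasome in either array.

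**Figure D1:**
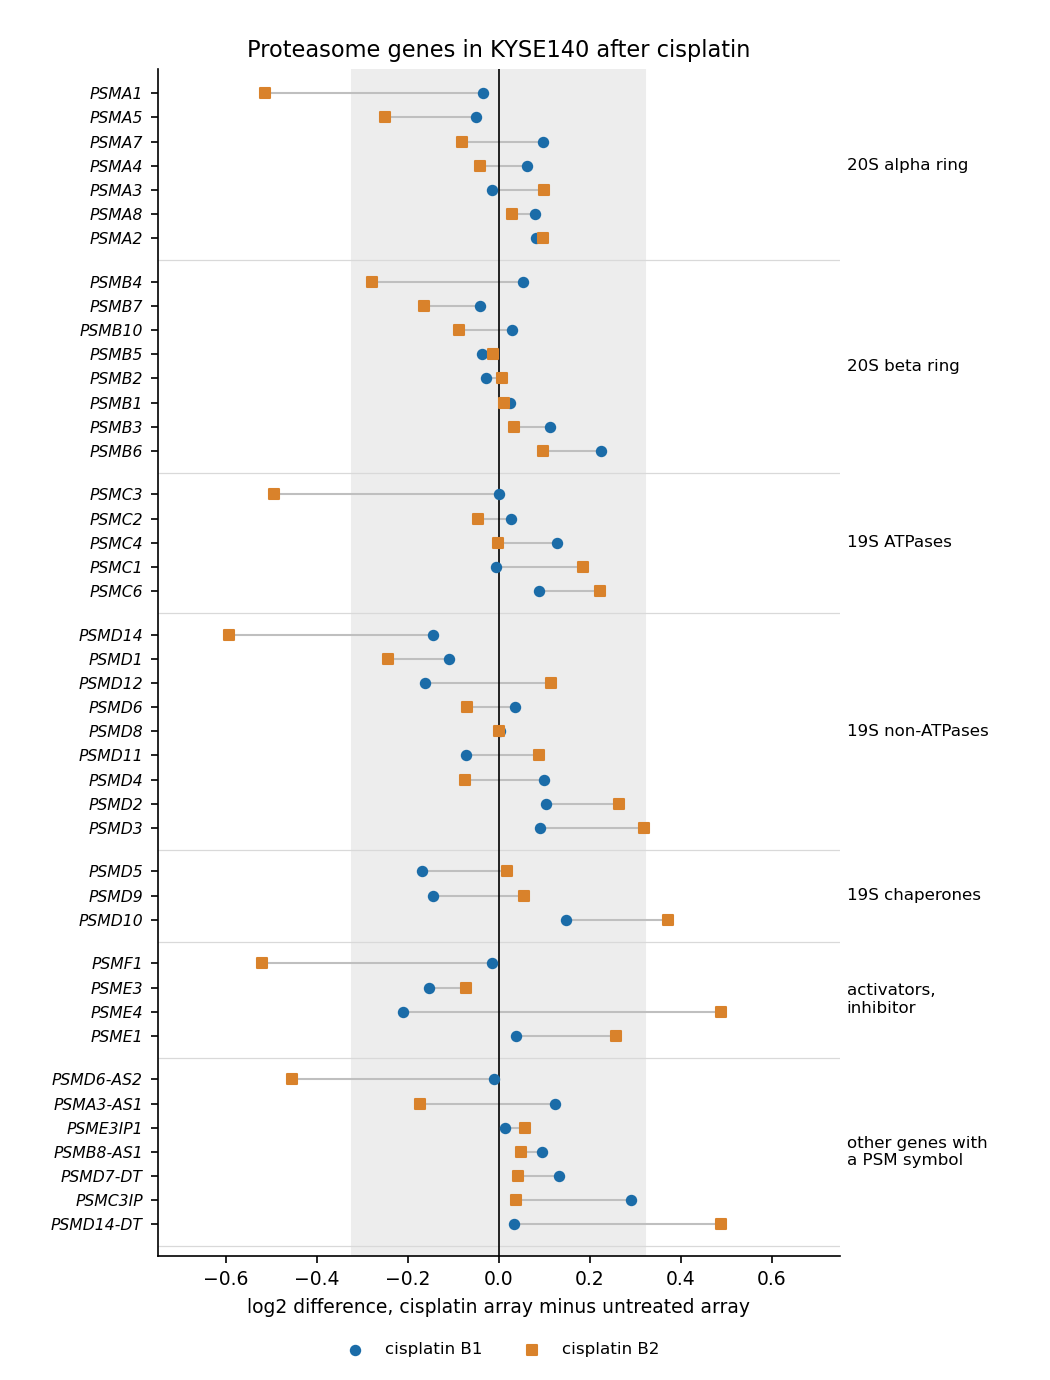
Log2 difference of each cisplatin array from the untreated array for the 43 members, grouped by role and ordered by mean difference (circles, B1; squares, B2; grey line, the pair of 1 gene). The vertical line is the untreated level and the shaded band is 0.32 either way. Every circle lies inside the band, and 8 squares lie outside it.

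**Figure D2:**
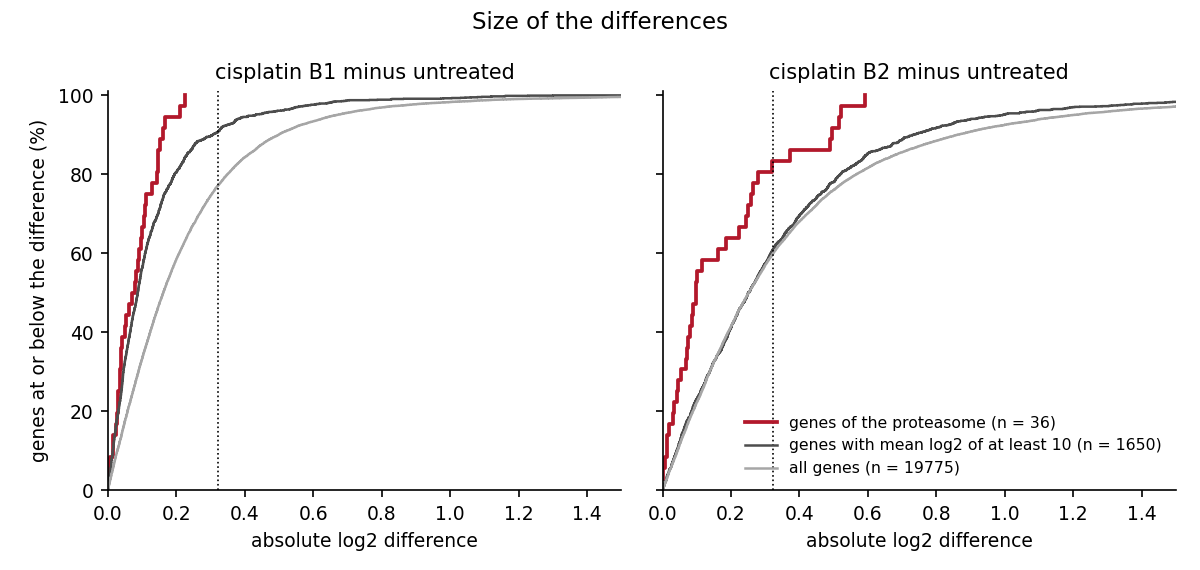
Share of genes (percent) whose absolute log2 difference from untreated is at or below the value on the x axis, for B1 (left) and B2 (right). Lines are the 36 proteasome genes, the 1650 genes with a mean log2 of at least 10 and all 19775 genes, and the dotted line is 0.32. In B1 all 36 proteasome genes lie left of the dotted line, and in B2 83.3% do.

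The limma test across all genes called 0 of 43 members and 0 of 19775 genes at an adjusted p of 0.05, with a smallest adjusted p of 0.97. At an unadjusted p under 0.05 it had 0 members, against 2.86% of all genes (565). The smallest unadjusted p of a member was 0.29 (PSMD14), and 95% intervals of the mean difference ran from -0.58 to 0.59 for the tightest gene, PSMD8, and from -1.11 to 1.39 for PSME4, the widest. In simulated arrays of the same design the test called 0% of genes given log2 changes of 1, 2, 3 or 4, so a missed call does not show that a gene was unchanged. The fit has 1 residual degree of freedom, and an exact permutation test of 1 array against 2 cannot give a p below 0.333.

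Promoter sequences show what the genes with the lowest and highest differences share or lack. The stretches below are the 150 bases before the annotated start of transcription, 5′ to 3′ on the gene's strand, from RefSeq (GRCh38.p14). Capitals mark CCAAT or its complement ATTGG, the box bound by NF-Y, and TGACNNNGC or its complement, the core of the antioxidant response element. PSMD14 (chr2:161308275-161308424, plus strand) and PSMA1 (chr11:14520387-14520536, minus strand) had the lowest mean differences among proteasome genes with 1 promoter window, and PSMD10 (chrX:108091543-108091692, minus strand) and PSMD3 (chr17:39980657-39980806, plus strand) the highest.
PSMD14: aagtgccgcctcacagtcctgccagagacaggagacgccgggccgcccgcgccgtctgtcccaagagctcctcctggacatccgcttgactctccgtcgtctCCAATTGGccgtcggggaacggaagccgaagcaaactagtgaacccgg
PSMA1: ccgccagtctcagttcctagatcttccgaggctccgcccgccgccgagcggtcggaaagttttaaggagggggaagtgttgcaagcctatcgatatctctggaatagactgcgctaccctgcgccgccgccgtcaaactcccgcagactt
PSMD10: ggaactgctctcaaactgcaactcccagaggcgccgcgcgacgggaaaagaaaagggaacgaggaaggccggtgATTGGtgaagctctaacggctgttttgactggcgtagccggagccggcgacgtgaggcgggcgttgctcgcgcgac
PSMD3: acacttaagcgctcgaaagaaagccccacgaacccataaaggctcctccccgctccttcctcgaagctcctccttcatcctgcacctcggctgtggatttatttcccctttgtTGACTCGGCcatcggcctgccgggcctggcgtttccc
In PSMD14 the box and its complement overlap in 1 run, which begins at position -48, counted back from the start at -1. PSMD10 holds the complement of the box at -76, PSMD3 holds 1 element core at -37, and the PSMA1 stretch holds neither.

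Of the 36 genes 31 matched a RefSeq promoter window, which runs from 250 bases before to 50 after the start. TGACNNNGC on either strand was found in 10 of the 31 (32.3%), against 16.1% of the 27305 genes in the table and 18.4% of the 15382 genes measured here. CCAAT on either strand was found in 15 of the 31 (48.4%), against 39.7% and 41.7%. The 10 genes with the element core were PSMA4, PSMB3, PSMC4, PSMD1, PSMD3, PSMD5, PSMD9, PSMD12, PSME1 and PSME4. Of these 3 were higher and 1 was lower in both cisplatin arrays, against 39.2% and 27.4% of all genes. The median mean difference was 0.04 for these 10 genes, -0.01 for the 21 genes without the element core and 0.04 over all genes. Of the 15 genes with CCAAT, 5 were higher and 5 lower in both arrays (39.2% and 27.4% of all genes). Their median mean difference was -0.0091, against -0.0076 for the 16 genes without it. A match describes letters and is no evidence of binding.

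The elements of 6 further genes are shown with 15 bases on each side, capitals as above, to let the letters between the fixed bases be compared. They are from chr17:38752622-38752660 (PSMB3, plus strand), chr17:67366719-67366757 (PSMD12, minus), chr9:120843033-120843071 (PSMD5, minus), chr12:121888626-121888664 (PSMD9, plus, the farther of its 2 matches), chr14:24136093-24136131 (PSME1, plus) and chr2:53971004-53971042 (PSME4, minus).
PSMB3: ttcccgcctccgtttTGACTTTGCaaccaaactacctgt
PSMD12: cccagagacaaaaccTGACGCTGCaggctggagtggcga
PSMD5: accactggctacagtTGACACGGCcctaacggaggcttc
PSMD9: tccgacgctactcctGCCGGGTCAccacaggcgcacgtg
PSME1: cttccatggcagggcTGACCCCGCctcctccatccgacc
PSME4: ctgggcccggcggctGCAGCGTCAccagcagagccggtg
The match begins at position -104 in PSMB3 and at -34 in PSME4. The differences of these 6 genes were 0.11 and 0.03 (PSMB3), -0.16 and 0.11 (PSMD12), -0.17 and 0.02 (PSMD5), -0.15 and 0.05 (PSMD9), 0.04 and 0.26 (PSME1), and -0.21 and 0.49 (PSME4).

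The alpha ring, the outer ring that gates entry to the core, had 7 measured genes and their median difference was 0.06 in B1 and -0.04 in B2. In both arrays 2 were higher and 2 lower. For this count and those of the roles below, the shares over all genes were 39.2% higher and 27.4% lower. PSMA1 (alpha 6) had intensities of 3647 in B1 and 2614 in B2, against 3733 in the untreated array, a mean log2 difference of -0.27 (SE 0.30). B1 matched the untreated array closely and B2 lay below both. Its 3 probe sets were alike, at -0.03, -0.14 and -0.09 in B1 and at -0.51, -0.56 and -0.54 in B2. PSMA5 (alpha 5) had 3827 in B1 and 3334 in B2, against 3964 untreated, and PSMA2 (alpha 2) had 5002 and 5055, against 4729. The cisplatin arrays were both below the untreated one for PSMA5 and both above it for PSMA2, by at most 0.25. Their second probe sets differed from this, at -0.03 and -0.59 for PSMA2 and at 0.92 and -0.33 for PSMA5. PSMA3 was at -0.01 and 0.10, PSMA4 at 0.06 and -0.04 and PSMA7 at 0.10 and -0.08. PSMA8, a testis form of the alpha 4 subunit, was dim, at 0.08 and 0.03.

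The beta ring carries the protease sites. Its 8 measured genes had medians of 0.03 in B1 and -0.0033 in B2, with 3 higher and 2 lower in both arrays. PSMB5, the chymotrypsin-like subunit and main target of bortezomib, had intensities of 2467 in B1 and 2508 in B2, against 2532 untreated. PSMB6, the caspase-like subunit, had 3492 and 3196, against 2989 untreated, a mean difference of 0.16 (SE 0.19). PSMB7, the trypsin-like subunit, had 3830 and 3518, against 3940 untreated. Among the catalytic subunits, the cisplatin arrays were thus both above untreated for PSMB6 and both below it for PSMB5 and PSMB7, by 0.22 at most.

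PSMB10 encodes the immunoproteasome form of the trypsin-like subunit and was far dimmer, with intensities of 191 in B1 and 176 in B2, against 187 untreated. The other immunoproteasome subunits, PSMB8 and PSMB9, are interferon-inducible and were set apart. PSMB8 had 251 in B1 and 18.3 in B2, against 233 untreated, and PSMB9 had 280 and 186, against 271. PSMB8 was far lower in B2 only, at -3.67, and lay at 0.11 in B1. The structural subunit PSMB4 had 6124 and 4865, against 5899 untreated, and only B2 was lower (-0.28). Its second probe set was at 0.09 and -0.26, but its dimmest was higher in both arrays (0.08 and 0.15). PSMB1 was at 0.02 and 0.01, PSMB2 at -0.03 and 0.01, and PSMB3 at 0.11 and 0.03.

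The 5 measured ATPases of the 19S base, which unfold substrates and open the core, had medians of 0.03 in B1 and -0.0025 in B2, with 1 higher and 1 lower in both arrays. The lower one, PSMC3 (Rpt5), was at -0.0001 in B1 and so counts as lower by sign alone. It had intensities of 1805 in B1 and 1281 in B2, against 1805 in the untreated array, so that the whole mean difference of -0.25 (SE 0.31) came from B2. PSMC6 (Rpt4) had 2629 and 2887, against 2474 untreated, and PSMC1 (Rpt2) had 2962 and 3385, against 2977. PSMC6 was above untreated in both arrays, PSMC1 in B2 alone. PSMC4 was at 0.13 and -0.0025. PSMC2 was at 0.03 and -0.05 by its brightest probe set, whereas its dimmer probe sets were at 0.30 and -0.78 and at -0.08 and -1.57.

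The 9 measured non-ATPase subunits of the cap had medians of 0.0026 and 0.0002, with 3 higher and 2 lower in both arrays. They held both the lowest gene of all members and some of the highest. PSMD14 (Rpn11), the deubiquitinase that strips ubiquitin chains from substrates, had intensities of 4162 in B1 and 3049 in B2, against 4597 in the untreated array. Both cisplatin arrays were below untreated, and the mean difference was -0.37 (SE 0.29, 95% interval -1.29 to 0.55). Its promoter carries the overlapping CCAAT boxes printed above, but the medians of genes with and without CCAAT lay close together (-0.0091 and -0.0076).

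PSMD3 (Rpn3), a lid subunit, had 592 in B1 and 693 in B2, against 556 untreated, a mean difference of 0.20 (SE 0.22). PSMD2 (Rpn1), the scaffold that docks shuttle proteins, had 1797 and 2006, against 1671 untreated (0.18, SE 0.20). For both genes the cisplatin arrays lay above untreated, with B2 the higher. PSMD4 (Rpn10), a ubiquitin receptor, had 2260 and 2001, against 2108 untreated, on either side of it. Its dimmer probe sets were at 0.08 and -0.07, at -0.03 and -0.16 and at 0.15 and 0.62. PSMD1 (Rpn2), the other large scaffold, was at -0.11 and -0.24, and its second probe set at -0.14 and -0.26. PSMD8 was the flattest gene, at 0.0026 and 0.0002. PSMD6 was at 0.04 and -0.07, PSMD11 at -0.07 and 0.09 and PSMD12 at -0.16 and 0.11. Second probe sets were at 0.57 and -0.17 for PSMD11 and at 0.31 and 0.13 for PSMD12.

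Chaperones that help build the base differed in direction in B1, whereas all 3 were above untreated in B2. By their brightest probe sets, B2 was above B1 by 0.22 (PSMD10), 0.19 (PSMD5) and 0.20 (PSMD9). PSMD10 (gankyrin), which also binds the retinoblastoma protein and MDM2, had intensities of 1615 in B1 and 1886 in B2, against 1458 in the untreated array. It had the highest mean difference of the 36 genes (0.26, SE 0.22), and its probe sets, at 0.15 and 0.19 in B1 and at 0.37 and 0.47 in B2, were all above untreated. PSMD5 (S5b) had 754 and 857, against 847 untreated, and PSMD9 (p27) had 982 and 1128, against 1086. By these probe sets both were lower in B1 and slightly higher in B2. The dimmer probe set of PSMD9 was higher in both arrays and level between them (0.27 and 0.27). That of PSMD5, dimmer still, was at -0.03 and 0.17.

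Activators and the inhibitor disagreed most between B1 and B2, with an SD of 0.50 for B2 minus B1 over 4 genes, against 0.25 over all 36. PSME4 encodes PA200, a nuclear cap that acts on acetylated histones. By its brightest probe set it had intensities of 522 in B1 and 846 in B2, against 604 in the untreated array, lower in one and higher in the other. A second probe set followed the same pattern (-0.38 and 0.45), and the third was lower in both (-0.55 and -1.11), so the gene's direction in B2 depends on the probe set. PSME1 (PA28 alpha), an interferon-inducible cap subunit, had 1820 and 2120, against 1773 untreated. PSME3 (PA28 gamma), a nuclear cap, had 834 and 882, against 928 untreated, and its other 3 probe sets did not agree in direction. PSMF1 encodes PI31, which inhibits the core in vitro, and had 422 and 297, against 426 untreated (mean -0.27, SE 0.31). Its second brightest probe set was lower in both arrays too (-0.11 and -0.20), and its dim ones were higher (0.40 and 0.04, and 0.38 and 0.39).

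**Figure D3:**
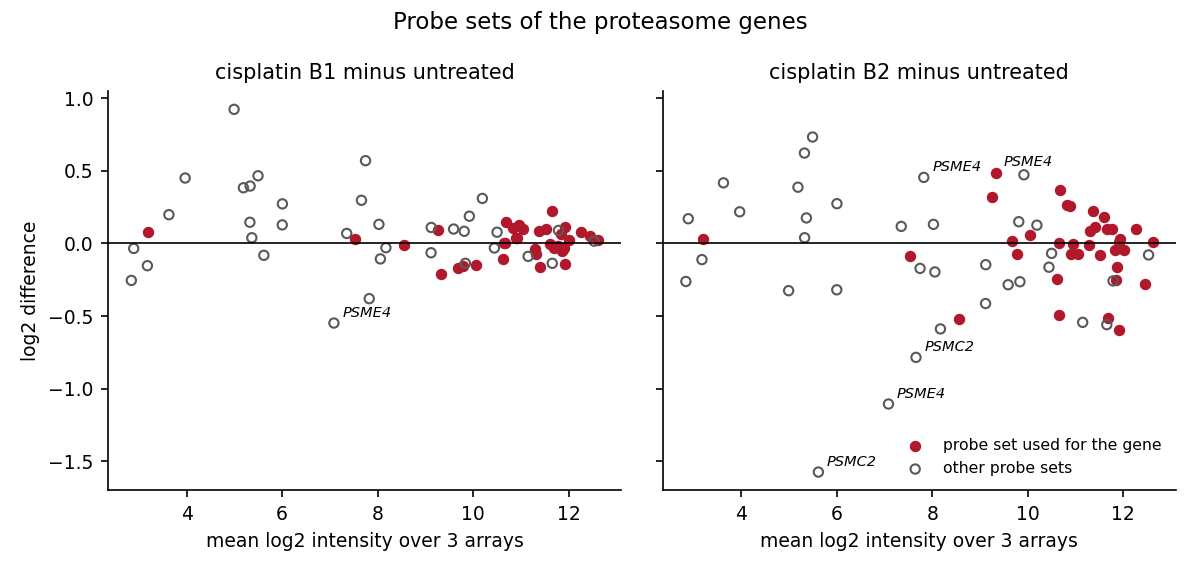
Log2 difference of each of the 71 probe sets of the 36 proteasome genes from untreated (left, B1; right, B2) against its mean log2 intensity over the 3 arrays. Filled points are the brightest probe set of each gene, used as its value, and open points are the others. In B2 the lowest open points are PSMC2 (-1.57) and PSME4 (-1.11), far from their genes' filled points (-0.05 and 0.49).

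Of the 36 genes 21 had more than 1 probe set. The widest ranges in B2 were 1.59 for PSME4, 1.53 for PSMC2 and 0.91 for PSMF1, and the narrowest were 0.01 for PSMD12, 0.02 for PSMD1 and 0.04 for PSMA1. The low values of PSMA1 and PSMD1 and the high values of PSMD10 were thus shared by all of their probe sets. Those of PSMD12 lay on either side of untreated in B1, at -0.16 and 0.31, so its B1 direction depends on the probe set. PSMD14, PSMD2, PSMD3 and PSMC3 had 1 probe set each, so no such check exists for them.

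Genomic span, the length of the annotated gene, went with the B1 difference. The 36 genes spanned 2.33 kb (PSMB6) to 139 kb (PSMA1), with a median of 17.7 kb, against 24.7 kb for all genes. Across the 36 genes Spearman's rho between span and difference was -0.62 in B1 and -0.12 in B2 (Pearson's r with log10 span -0.58 and -0.23), as a description of genes that share the same 3 arrays. Over the 1649 genes with a mean log2 of at least 10 and a span it was -0.49 and -0.15, so the relation was not confined to the proteasome. Of the 7 genes over 50 kb, 5 were lower in both arrays (PSMA1, PSMB7, PSMD1, PSMD14 and PSMF1), PSMA8 was higher in both and PSME4 went opposite ways. Of all genes over 50 kb 45.2% were lower and 24.9% higher in both. Of the 29 shorter genes 4 were lower and 10 higher in both, against 19.3% and 45.7% of all genes of 50 kb or less. Medians were -0.04 and -0.24 for the 7 long genes and 0.03 and 0.01 for the 29 shorter ones. These lists were split after seeing the data, and the split has no test.

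**Figure D4:**
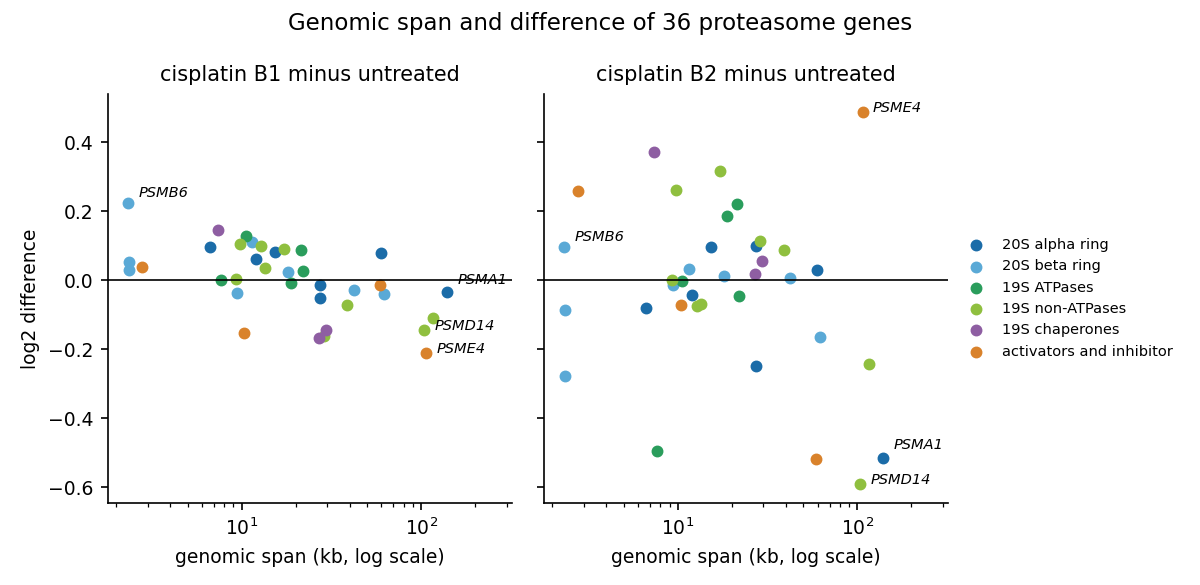
Log2 difference from untreated (left, B1; right, B2) against genomic span in kb (log scale) for the 36 proteasome genes, coloured by role. In B1 PSMB6 (2.33 kb, 0.22) is the highest point and PSME4 (107 kb, -0.21) the lowest. In B2 the long genes PSMD14 (-0.59), PSMF1 (-0.52) and PSMA1 (-0.51) are low, and PSME4 lies at 0.49.

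The other 7 members share only the symbol prefix. PSMC3IP encodes a cofactor of meiotic recombination and had intensities of 410 in B1 and 344 in B2, against 335 in the untreated array. PSME3IP1, a binding partner of PA28 gamma, was at 0.01 and 0.06 by its brightest probe set. Its other probe sets were all lower in B2 (-0.33, -0.08 and -0.28). The antisense transcripts PSMA3-AS1, PSMB8-AS1 and PSMD6-AS2 and the divergent transcripts PSMD7-DT and PSMD14-DT are non-coding. PSMD6-AS2 had 71.9 and 52.9, against 72.5 untreated, and PSMD14-DT had 9.79 and 13.4, against 9.57 untreated, both dim. The dimmer probe set of PSMD6-AS2 was higher in both arrays (0.62 and 0.18). PSMA3-AS1 was at 0.12 and -0.17, PSMB8-AS1 at 0.10 and 0.05, and PSMD7-DT at 0.13 and 0.04.

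The list of assembly chaperones held 5 genes for the core and PAAF1, which acts on the 19S base. Of its 6 genes 4 were lower and 1 higher in both arrays (27.4% and 39.2% of all genes), with a median mean difference of -0.22 (0.04 over all genes), and 0 of 6 passed the limma test. PAAF1 (-0.01 and -0.44) and POMP (-0.04 and -0.31) lay close to untreated in B1. PSMG2 (PAC2), which builds the alpha ring with PSMG1, had intensities of 3086 in B1 and 2277 in B2, against 3625 untreated. PSMG4 (PAC4) had 413 and 499, against 552 untreated, whereas its partner PSMG3 (PAC3) had 1400 and 1766, against 1294 untreated. POMP, the maturation factor for the beta ring, had 5439 and 4490, against 5580 untreated. PSMG2 and PSMG4 were thus below untreated in both arrays, by -0.23 and -0.67 and by -0.42 and -0.15.

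Among regulators of proteasome genes, NFE2L1 had 705 in B1 and 1144 in B2, against 750 untreated, so only B2 was higher (0.61). NFE2L2, the related oxidative stress factor, had 1935 and 1645, against 1968 untreated. NGLY1, the glycanase that processes the NFE2L1 protein, had 332 and 361, against 409 untreated, and DDI2, its protease, was not analysed here. NFYA, a subunit of the CCAAT-binding factor NF-Y, had 153 and 160, against 200 untreated, and STAT3 was at -0.24 and -0.26. Of the 8 genes 6 were lower and 1 higher in both arrays (27.4% and 39.2% of all genes), and 0 passed the limma test. Averaged over every probe set, the differences of NFYA (-0.35), NGLY1 (-0.24) and NFE2L2 (-0.14) turned positive, to 0.08, 0.18 and 0.03.

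UBB, a polyubiquitin gene induced by many stresses, stood highest among the ubiquitin genes. It had intensities of 10070 in B1 and 13349 in B2, against 8201 in the untreated array, a mean difference of 0.50 (SE 0.27, limma adjusted p = 0.97). The activating enzyme UBA1 was at 0.0050 and -0.36 and UBA6 at -0.17 and -0.32. Of these 3 measured genes 1 was higher and 1 lower in both arrays (39.2% and 27.4% of all genes).

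Proteins that bring substrates to the proteasome had a wider spread than its subunits in B2, but one near that of all genes. SDs were 0.68 (4 shuttle genes) and 0.55 (9 genes of the VCP list), against 0.25 over the 36 and 0.60 over all genes. The shuttle gene UBQLN2 had 860 in B1 and 352 in B2, against 703 untreated, UBQLN1 was at 0.13 and -0.46, and UBQLN4 was at 0.04 and 0.55. Of 4 shuttle genes 1 was higher and 0 lower in both arrays (39.2% and 27.4% of all genes). Among VCP, the segregase that extracts ubiquitinated proteins, and its cofactors, 4 of 9 were higher and 3 lower. FAF1 had 1056 and 562, against 1227 untreated, and FAF2 had 1094 and 630, against 1275. Both were lower in both arrays, with most of the difference in B2. YOD1, a deubiquitinase that works with VCP, had 520 and 405, against 295 untreated, and was at 0.82 and 0.46.

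Of 11 accessory and proteasome-bound proteins 2 were higher and 4 lower in both arrays (39.2% and 27.4% of all genes). The ubiquitin ligase UBE3A was at -0.29 and -0.57, the adaptor ECPAS at -0.22 and -0.25, and AKIRIN2, which mediates nuclear import of proteasomes, at 0.15 and 0.42. The chaperone list had a median mean difference of 0.16 (0.04 over all genes), with 6 of 10 genes higher and 1 lower in both (39.2% and 27.4% of all genes), and 3 more of its genes were not analysed here. The largest differences were those of DNAJB1 (0.83 and 1.47), HSF1 (0.25 and 0.96) and BAG3 (0.49 and 0.63). HSF1, counted in this list, is a transcription factor and not a chaperone. In CCT 3 of 7 were higher and 1 lower (CCT7 at 0.10 and 0.48, CCT3 at 0.02 and 0.31, CCT2 at 0.09 and -0.37). Among 13 genes of the APC/C, the mitotic ubiquitin ligase, 5 were higher and 2 lower (ANAPC10 at -0.41 and -0.39, ANAPC4 at 0.06 and 0.52, CDC16 at 0.09 and -0.85). No gene of any of these lists passed the limma test.

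**Figure D5:**
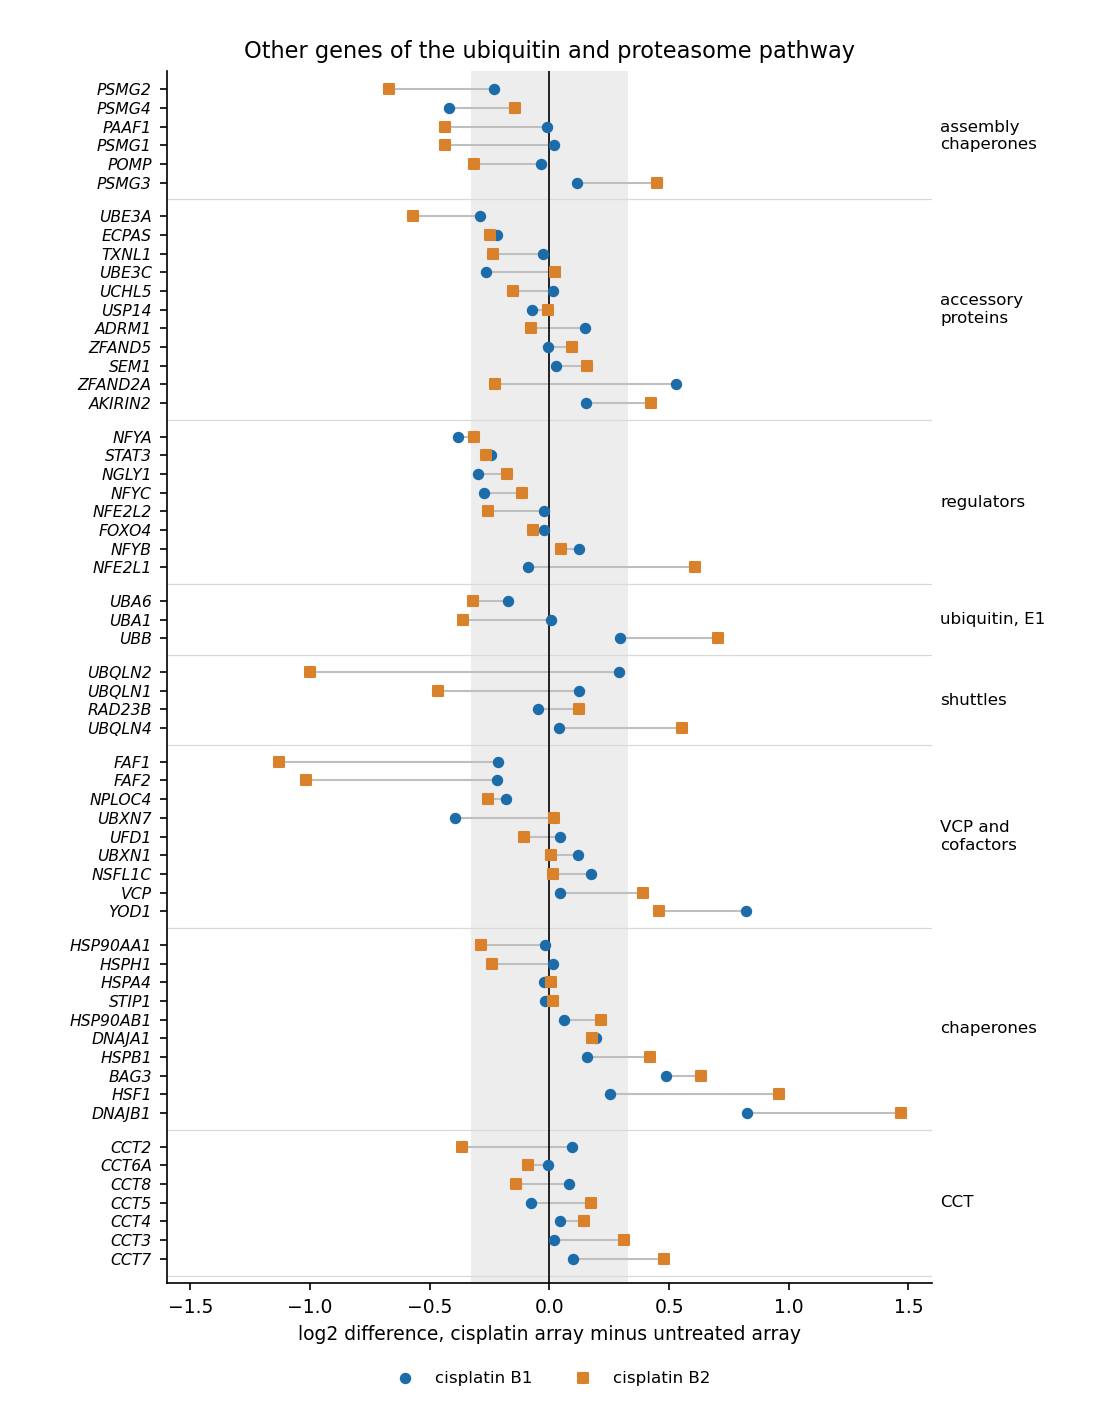
Log2 difference of each cisplatin array from untreated for the other genes of the pathway, by list (circles, B1; squares, B2; band, 0.32 either way). UBB, YOD1, BAG3 and DNAJB1 lie to the right in both arrays, and FAF1, FAF2 and PSMG2 lie to the left in both.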

How the data were processed

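RNA of 3 samples was measured on Affymetrix arrays. The authors deposited 1 intensity per probe set, made with RMA per the submitters' processing notes; its version is not given in the sources used here. The deposited intensities, 3.03 to 19645, are linear, and log2 was taken with no pseudocount. Of 54675 probe sets, 62 controls, 1801 with several symbols and 11721 unnamed ones were left out of the tests. The other 41091 were named from the platform annotation, updated by gene number (19735 of 19775 genes found in GRCh38.p14), and the brightest probe set stood for each gene. No detection calls were used. Cisplatin was compared with untreated by limma 3.58.1 (R 4.3.3), with Benjamini-Hochberg adjustment over all genes. This takes the spread of the cisplatin pair as that of the untreated group. The fit was tested on simulated data.

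Members and gene lists were chosen with earlier results of these data known. Every member is named. Per-array intensities follow a rule: the 3 largest mean differences of each role, the catalytic subunits, PSMB10, PSMD4, PSMD14, activators and PSMF1; per pathway list, up to 3 genes of the largest difference at a mean log2 of at least 6, plus NFE2L1, NFE2L2, NGLY1 and POMP. Alternatives covered probe sets, quantile normalization, centring, dim genes, the variance prior, size limits and each cisplatin array alone.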

Additional observations from a re-analysis of the deposited data

How the results depend on the processing

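No member and no gene passed the limma test under any of the 6 alternative settings run, and no member met the 2-fold limit, or the lower limits of 1.5-fold or 0.32 on the log2 scale, in both arrays. Members higher in both arrays numbered 16; with genes of mean log2 of at least 10, chosen after seeing the data, they numbered 9, and leaving out 1 cisplatin array gave 24 to 25, since 1 array is then enough. Members lower in both arrays, 10, became 18 to 19 in the same way. The members' median difference (0.0085) was 0.0461 with the mean over all probe sets, -0.0054 with median centring, and 0.0117 to 0.027 with 1 cisplatin array. With 1 array the beta ring median ran from -0.0033 to 0.0269 and that of the ATPases from -0.0025 to 0.027, against -0.0182 and 0.0633 with both. The median of the non-ATPases (0.0014) was 0.0759 with all probe sets, 0.0041 with quantile normalization and -0.0125 with centring, and that of the base chaperones (-0.05) was 0.11 with all probe sets. The cause of these shifts was not tested. Of 75 named genes, the mean difference changed sign in 13 with all probe sets, in 5 with centring, in 4 with quantile normalization, in 17 with B1 alone and in 8 with B2 alone. No paired analysis was possible because the untreated group has 1 array with no replicate number. Dim probe sets, among them those of PSMA8 and PSMD7-DT, limit what their values show.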
